A study of Mus musculus with 2 samples.

Results

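Integrins are paired adhesion receptors, and Icam1 is a cell-surface ligand that several of them bind. The transcripts of 9 integrin subunits and of Icam1 were read in bone marrow-derived macrophages, chosen as a fixed list of 10 genes (Itgam, Itgax, Itgal, Itgav, Itga4, Itga5, Itga6, Itgb1, Itgb2 and Icam1) out of 55536 annotated genes. The list was made with earlier results of these data known. Each symbol was found once in the deposited tables, so all 10 members were measured. The cells were primary macrophages grown from C57BL/6J mouse marrow, with sex and age not collected. They received 100 ng/ml lipid A for 12 h, stood without it for 12 h, and were given 100 ng/ml again, for 120 min. Some labels name the agent lipoprotein A instead. The group has 2 libraries, numbered by the labels as biological replicates 1 and 2. They come from different biosamples with the same donor identifier, so separate animals are not established. Biological and technical spread between them cannot be told apart. Untreated or once-treated cells were not analysed here, so every level below is a state of twice-exposed cells and not a response to lipid A.

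An integrin is made of an alpha and a beta subunit, and the pair decides which ligand is bound. Leukocytes use the beta 2 integrins, in which Itgb2 joins Itgal, Itgam or Itgax, to hold ICAM proteins on other cells and complement on coated particles. Beta 1 and alpha v integrins bind matrix proteins such as fibronectin and vitronectin. Integrins rest in a bent state until talin and kindlin bind the beta tail from inside the cell, and ICAM1 is a well-known NF-kB target on activated cells.

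The libraries held 45377715 expected counts in replicate 1 and 32112416 in replicate 2. All 9 macrophage markers on a fixed list were at 10 TPM or more in both (TPM scales each library to the same total and corrects for transcript length). Lyz2 stood at 8979 and 9815 TPM and Adgre1, which encodes F4/80, at 2554 and 2061 TPM. Markers of T and NK cells were all under 1 TPM in both libraries (5 of 5), as were those of stromal cells (5 of 5). Neutrophil markers summed to 63.5 TPM over 8 genes in replicate 1 and 6.58 TPM in replicate 2. None reached 10 TPM in both, Ly6g had no reads, and all 4 that could be tested were higher in replicate 1 by the exact binomial test described for the members, which called 64.7% of all tested genes and 32.3% as higher in replicate 1. Endothelial markers summed to 5.07 and 15.3 TPM over 4 genes, nearly all of it Kdr, with Tek at 0. Megakaryocyte and platelet markers summed to 274 and 95.9 TPM over 5 genes, nearly all of it Pf4. Itga2b, Gp9 and Gp1bb stayed under 1 TPM in both libraries, and the 3 markers that could be tested were higher in replicate 1. That sum thus describes Pf4, and whether such cells were present was not tested. In bulk RNA, fewer cells of a type and less RNA per cell cannot be told apart.

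Icam1 had the highest level of the 10 members. It lies on chromosome 9 (mm10, 21015985 to 21028817, plus strand) and stood at 544 TPM in replicate 1 and 689 TPM in replicate 2, a mean of 617 ± 103 TPM (SD, n = 2). Among 9773 protein-coding genes with at least 1 TPM in both libraries, 208 had a higher mean. Its spliced coding transcript Icam1-201 carried 99.4% and 99.5% of the gene's TPM, and a retained-intron form made up the rest. An antisense gene, Gm47079, overlaps the end of Icam1 and had 9.59 and 1.82 expected counts, against 38382 and 33056 for Icam1. Its neighbours downstream, Icam4 and Icam5, were close to silent, with Icam4 at 0.09 and 0.01 TPM and Icam5 at 0.12 and 0.04 TPM.

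The promoter window of Icam1 (RefSeq, GRCm38.p6, chr9:21015690-21015989, plus strand, 250 bases before the gene's start and 50 after it) is shown because this gene heads the list. RefSeq promoter windows were matched for 7 of the 10 members, and Itgal, Itgb2 and Itga6 had none. Capitals mark matches on either strand to the motifs searched, which were chosen after the windows were read: NF-kB as GGAAATTCC, the STAT element GAS as TTCNNNGAA, AP-1 as TGANTCA, a PU.1 core as GAGGAA, the TATA box as TATAAA and the GC box as GGGCGG. No capital stretch holds overlapping motifs.
Icam1: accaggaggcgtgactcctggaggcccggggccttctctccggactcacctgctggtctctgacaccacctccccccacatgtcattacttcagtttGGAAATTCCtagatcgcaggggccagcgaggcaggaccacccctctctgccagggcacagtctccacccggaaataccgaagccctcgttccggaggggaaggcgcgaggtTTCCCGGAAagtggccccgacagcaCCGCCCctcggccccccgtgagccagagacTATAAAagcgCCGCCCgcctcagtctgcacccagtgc
Among the 7 windows, only that of Icam1 held the NF-kB letters, 153 bases before the RefSeq start, and 0.317% of all 32851 promoter windows held them. The same was true of the GAS letters, 42 bases before that start, which 8.3% of all windows held, and of the TATA box, which 13.6% held. The TATA box lies 13 bases after the RefSeq start. The GENCODE start of the gene is 45 bases downstream of that RefSeq start, so by the GENCODE annotation the TATA box lies ahead of the gene. The NF-kB motif was a fixed string chosen after the windows were read, so its presence in Icam1 alone is not a test. Its share is that of this string, and NF-kB letters that differ from it were not searched. GAS and AP-1 were searched with free positions, so their shares cannot be set beside it. A match describes letters in a window and shows no binding.

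The beta subunits were both among the 4 highest members. Itgb2, the shared beta chain of the leukocyte integrins (chromosome 10, 77530252 to 77565708, plus strand), was at 374 TPM in replicate 1 and 361 TPM in replicate 2, a mean of 368 ± 9.32 TPM. Itgb1, the beta chain of the fibronectin and laminin receptors (chromosome 8, 128685654 to 128733200, plus strand), was at 209 and 238 TPM, a mean of 223 ± 20.6 TPM. Itgb2 exceeded Itgb1 1.79-fold in replicate 1 and 1.52-fold in replicate 2, and their ranges did not overlap.

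Of the alpha chains that pair with Itgb2, 2 were abundant and close to each other. Itgam, the alpha chain of Mac-1 or complement receptor 3 (chromosome 7, 128062640 to 128118491, plus strand), had 169 and 142 TPM, a mean of 155 ± 18.7 TPM. Itgal, the alpha chain of LFA-1 (chromosome 7, 127296260 to 127335138, plus strand), had 130 and 170 TPM, a mean of 150 ± 27.7 TPM. Their ranges overlapped and their order changed between libraries, with Itgam 1.29 times Itgal in replicate 1 and 0.84 times in replicate 2. Neutrophils also express Itgam, and the neutrophil markers given above were higher in replicate 1 as Itgam was; their part in this difference was not tested.

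Itgax, the alpha chain of complement receptor 4 and a marker widely used for dendritic cells (chromosome 7, 128129547 to 128150657, plus strand), was the lowest member. It had 4.14 TPM in replicate 1 and 0.85 TPM in replicate 2, from 144 and 68 expected counts. Most of the difference in TPM came from a single short transcript. In replicate 1 a 352-base retained-intron form, Itgax-202, took 8.54 reads, which the length correction of TPM turned into 2.90 TPM, or 70.0% of the gene. The full-length coding transcript Itgax-201 stood at 1.12 and 0.85 TPM. As a share of all counts, Itgax was at 3.17 CPM in replicate 1 (exact 95% interval 2.68 to 3.74) and 2.12 CPM in replicate 2 (1.64 to 2.68), so by counts the libraries were closer than the TPM values. Dendritic cell markers were low as well: 5 of 6 were under 1 TPM in both libraries, and Ccr7, the highest, was at 4.55 and 3.60 TPM.

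Itgam and Itgax are neighbours on chromosome 7 in the same orientation, yet Itgam exceeded Itgax 40.7-fold in replicate 1 and 167-fold in replicate 2. The replicate 1 value carries the 8.54 reads of Itgax-202: from coding transcripts alone the ratios were 134 and 167, and from expected counts, which are not corrected for length, 158 and 194. Their RefSeq windows (chr7:128062390-128062689 and chr7:128129300-128129599, both plus strand) are shown for that contrast, with capitals as above.
Itgam: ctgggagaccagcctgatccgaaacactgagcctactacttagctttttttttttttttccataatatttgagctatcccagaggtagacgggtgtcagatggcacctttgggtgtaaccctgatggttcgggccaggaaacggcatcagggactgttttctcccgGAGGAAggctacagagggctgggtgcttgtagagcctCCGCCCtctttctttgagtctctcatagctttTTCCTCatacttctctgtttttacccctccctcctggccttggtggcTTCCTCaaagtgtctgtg
Itgax: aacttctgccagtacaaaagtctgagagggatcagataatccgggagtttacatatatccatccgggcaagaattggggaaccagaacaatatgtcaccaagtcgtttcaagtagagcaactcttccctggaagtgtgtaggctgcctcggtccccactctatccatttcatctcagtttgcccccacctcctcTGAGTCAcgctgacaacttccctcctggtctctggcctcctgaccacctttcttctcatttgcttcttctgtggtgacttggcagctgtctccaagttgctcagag
The Itgam window held 3 matches to the PU.1 core, letters that 28.3% of all windows contained, and 4 of the 7 member windows did (Itga5, Itgam, Itgav and Itgb1). The Itgax window held the AP-1 letters, present in 7.81% of all windows and in no other member window. It was also the only member window without a GC box, which 35.7% of all windows held. GC content was 50.3% for Itgam and 50% for Itgax, against a median of 52.7% over all windows.

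The fibronectin receptor chain Itga5 led the alpha subunits. Itga5 (chromosome 15, 103344286 to 103366763, minus strand) had 271 TPM in replicate 1 and 258 TPM in replicate 2, a mean of 264 ± 9.25 TPM. Itga4, the chain of VLA-4 that binds VCAM-1 and fibronectin (chromosome 2, 79255426 to 79333123, plus strand), had 51.2 and 75.9 TPM, a mean of 63.6 ± 17.5 TPM. It was 0.19 times Itga5 in replicate 1 and 0.29 times in replicate 2.

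Itgav, the alpha v chain that binds vitronectin and apoptotic-cell bridging proteins (chromosome 2, 83724397 to 83806916, plus strand), had 25.4 TPM in replicate 1 and 57.9 TPM in replicate 2. Its mean was 41.6 ± 23.0 TPM, and its range overlapped that of Itga4. Itga6, a laminin receptor chain (chromosome 2, 71745616 to 71858416, plus strand), had 17.6 and 25.3 TPM, a mean of 21.4 ± 5.46 TPM. The highest Itga6 library and the lowest Itgav library were almost level, at 25.28 and 25.39 TPM.

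**Figure D1:**
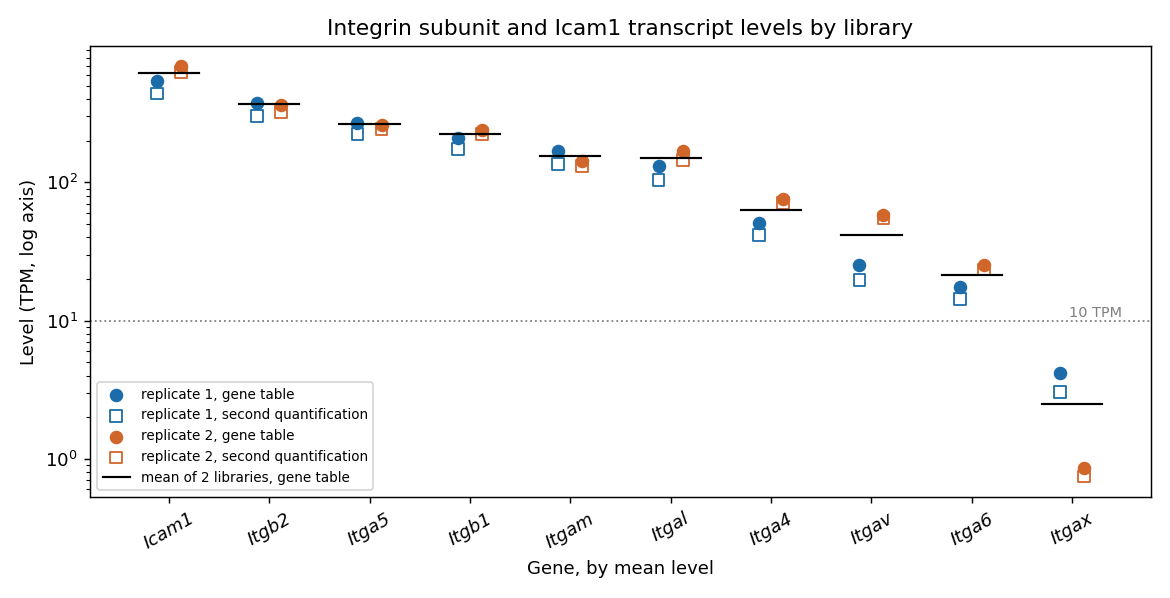
Transcript level in TPM on a log axis for each of the 10 genes, ordered by mean; filled circles are the gene table, open squares the second quantification, blue replicate 1, orange replicate 2 and black lines the mean of 2 libraries. Icam1 stands highest at 544 and 689 TPM and Itgax is the only gene below 10 TPM.

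Ordered by mean TPM, the members ran Icam1, Itgb2, Itga5, Itgb1, Itgam, Itgal, Itga4, Itgav, Itga6 and Itgax. In the gene table, only the neighbours Itgam and Itgal, and Itga4 and Itgav, had overlapping library ranges. A level of 10 TPM in both libraries was reached by 9 of the 10 members, against 27.2% of 22028 protein-coding genes and 11.1% of all annotated genes. A level of 100 TPM was reached by 6 members, against 5.2% of protein-coding genes and 2.12% of all annotated genes. The median member stood at 153 TPM and the median detected protein-coding gene at 18.2 TPM. Of the integrin subunit genes outside the list, 0 of 11 alpha and 1 of 6 beta genes reached 10 TPM in both libraries. The members were chosen with earlier results of these data known, so these shares and medians describe the list and do not test it. The second quantification, made from the reads without an alignment file, gave the same order over all 10, by mean. Its values were 0.735 to 0.838 times those of the gene table in replicate 1 and 0.853 to 0.946 times in replicate 2. In it the library ranges of Itgav (19.6 and 54.8 TPM) and Itga6 (14.2 and 23.4 TPM) overlapped as well.

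Summed over partners, alpha and beta transcripts were in a similar proportion in both libraries. The 4 alpha genes that pair with Itgb2 summed to 303 TPM in replicate 1 and 313 TPM in replicate 2, or 0.81 and 0.87 times Itgb2. Itgam made up 55.6% of that sum in replicate 1 and 45.5% in replicate 2, Itgal 43.0% and 54.2%, and Itgax 1.36% and 0.27%. Itgad, the remaining beta 2 partner, had 2 reads in replicate 1 and 5 in replicate 2 in the gene table. The 12 alpha genes that can pair with Itgb1 summed to 373 and 427 TPM, 1.79 and 1.80 times Itgb1. Of these Itga5 held 72.6% and 60.4%, Itga4 13.7% and 17.8%, Itgav 6.80% and 13.6%, and Itga6 4.71% and 5.92%. Itga4, Itga6 and Itgav also pair with other beta chains, and transcript ratios do not measure receptors at the surface.

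**Figure D2:**
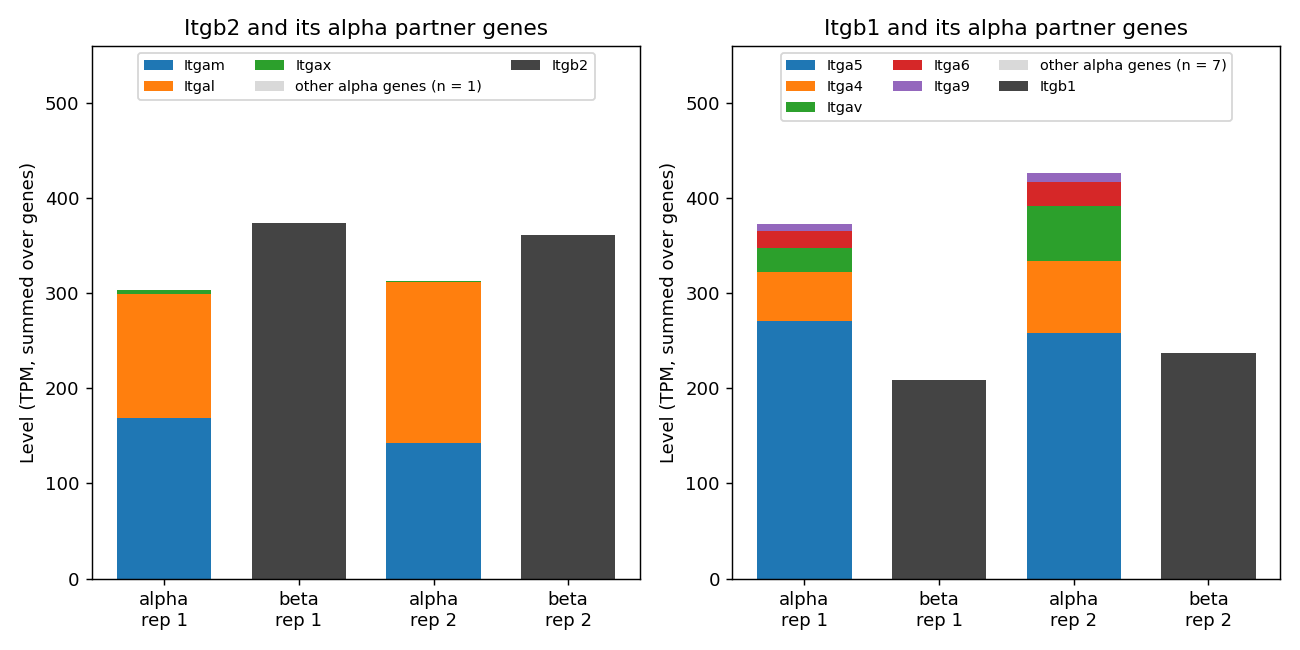
Summed TPM of the alpha genes that can pair with Itgb2 (left) or Itgb1 (right), stacked by gene, beside the beta gene (dark grey) in each library. The alpha sum is 0.81 and 0.87 times Itgb2, with Itgam and Itgal as nearly all of it, and 1.79 and 1.80 times Itgb1, with Itga5 as the largest part.

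The rest of the integrin family was mostly silent. Of 11 other alpha genes, 10 were under 1 TPM in both libraries, and Itga3 and Itga11 were at 0 reads in the gene table, which allows up to 0.0661 CPM in replicate 1 and 0.0934 CPM in replicate 2. The exception was Itga9, an alpha chain that pairs with Itgb1, at 8.14 and 9.85 TPM. Its counts ran the other way, with 1088 in replicate 1 and 417 in replicate 2, as its effective length was 4256 bases in replicate 1 and 1995 bases in replicate 2. Of 6 other beta genes, Itgb5, which pairs with alpha v, was at 75.4 and 54.5 TPM, and Itgb7, which pairs with Itga4, at 5.94 and 10.8 TPM. The other 4 were under 1 TPM, among them Itgb8 at 0.29 and 0.82 TPM and Itgb3, another alpha v partner, at 0.47 and 0.42 TPM. By the exact binomial test between libraries, which called 64.7% of all tested genes (32.5% higher in replicate 2, 32.3% higher in replicate 1), both testable alpha genes, Itga9 and Itga2b, were higher in replicate 1. Of 4 testable beta genes, Itgb7 and Itgb8 were higher in replicate 2 and Itgb5 in replicate 1.

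Transcript structure differed between members. Itga4, Itga5, Itgb1 and Icam1 each had a single coding transcript with nearly all of the TPM from aligned reads, namely Itga4-201 (97.1% and 98.1%), Itga5-201 (98.8% and 99.0%), Itgb1-201 (99.3% and 98.9%) and Icam1-201. In the second quantification Itga4-201 held 96.0% and 97.5% and Itga5-201 held 96.7% and 97.9%. Itgb1-201 held 91.5% there in replicate 1 and 99.0% in replicate 2, and a nonsense-mediated decay form, Itgb1-202, held 7.96% and 0.88%. The remaining 6 members divided their TPM among several forms in at least 1 library.

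Itgam was split between forms that differ, within the coding sequence, by 3 bases at the start of exon 14 of 30 (mm10, chr7:128101634-128101636, plus strand). The sequences around this point are printed from the GENCODE M21 transcripts with 20 bases on each side, and capitals mark the 3 bases.
Itgam-201: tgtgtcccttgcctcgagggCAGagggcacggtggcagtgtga
Itgam-203: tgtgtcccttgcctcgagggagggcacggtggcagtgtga
The shorter form, Itgam-203, held 60.3% of Itgam TPM in replicate 1 and 61.7% in replicate 2, and the longer form, Itgam-201, held 37.5% and 38.0%. The second quantification gave 59.8% and 57.4% for the shorter form and 37.2% and 40.1% for the longer. The annotated lengths are 4682 bases for Itgam-201 and 4649 bases for Itgam-203, so the forms also differ at their outer ends and their shares need not rest on the 3 bases alone. A protein-coding gene that spans Itgam on the same strand, Gm49368, had 90.1 and 35.6 expected counts, 0.40% and 0.27% of those of Itgam.

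Itgal also has forms that differ by 3 coding bases, here at the end of exon 18 of 31 (mm10, chr7:127317364-127317366, plus strand), printed the same way.
Itgal-201: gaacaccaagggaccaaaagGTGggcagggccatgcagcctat
Itgal-202: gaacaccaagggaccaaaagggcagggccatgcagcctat
The form with the 3 bases, Itgal-201, held 49.3% and 46.6% of Itgal TPM, and 45.1% and 45.2% in the second quantification. The form without them, Itgal-202, held 20.9% and 7.78%, but 43.6% and 39.0% in the second quantification. The annotated lengths are 5195 bases for Itgal-201 and 5222 bases for Itgal-202. These forms thus also differ elsewhere, and their shares need not rest on the 3 bases alone. Another form, Itgal-203, which starts within the gene at 127309518, held 27.5% and 43.4% from aligned reads and 2.76% and 13.1% in the second quantification. The split between the full and the shorter start of Itgal differed between the quantifications, while the share of Itgal-201 stayed between 45.1% and 49.3%.

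Itga6 transcripts concerned the cytoplasmic tail. The known A and B forms of this subunit differ in that tail through an alternative exon near the end of the gene, exon 25 of 26 in Itga6-201 (130 bases, chr2:71853534-71853663, plus strand). The A form is printed from 20 bases ahead of that exon, in capitals, to the end of the coding sequence. The B form, Itga6-202, is printed from the same 20 bases into the next exon, to the end of its coding sequence.
Itga6-201: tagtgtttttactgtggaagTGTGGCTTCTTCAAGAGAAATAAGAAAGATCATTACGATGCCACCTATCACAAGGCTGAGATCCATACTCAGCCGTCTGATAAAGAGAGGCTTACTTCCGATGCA
Itga6-202: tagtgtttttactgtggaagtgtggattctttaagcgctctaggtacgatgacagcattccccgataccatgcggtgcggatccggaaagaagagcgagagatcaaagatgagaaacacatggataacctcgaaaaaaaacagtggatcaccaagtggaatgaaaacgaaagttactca
Itga6-201, with the exon, had 8.41 and 14.3 TPM, or 47.9% and 56.7% of the gene. The full-length form without it, Itga6-202, was assigned 0 reads in both libraries and in both quantifications. Itga6-203, a noncoding 3-exon transcript that starts near the end of the gene, took 8.57 and 10.3 TPM, or 48.8% and 40.8%. It runs to the end of the gene, so reads from the tail of a B form could have been assigned to it. The 0 for Itga6-202 therefore does not show that the B form was absent, which was not tested. With coding forms only, Itga6 was at 8.50 TPM in replicate 1 and 14.3 TPM in replicate 2, against 17.6 and 25.3 TPM for the gene.

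Some less abundant forms of Itgb2 and Itgav had other shares in the second quantification. Itgb2-204, annotated to undergo nonsense-mediated decay, lacks exon 12 of 16 (245 bases, chr10:77559479-77559723). It held 5.43% of Itgb2 TPM in replicate 1 and 9.53% in replicate 2, against 0.21% and 0.16% in the second quantification. Itgav-202 lacks the adjoining exons 5 and 6, of 62 and 46 bases, and held 18.0% and 9.40% of Itgav TPM, against 2.99% and 1.59% in the second quantification. The short coding forms Itgav-206, of 688 bases, and Itgav-205, of 463 bases, were also found. Itgav-206 held 7.21% and 5.77%, against 7.64% and 5.42% in the second quantification. Itgav-205 held 6.85% and 0%, and 0% in both libraries there. The main form Itgav-201 was at 17.0 and 48.7 TPM, so the distance between libraries was wider for it than for the gene.

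**Figure D3:**
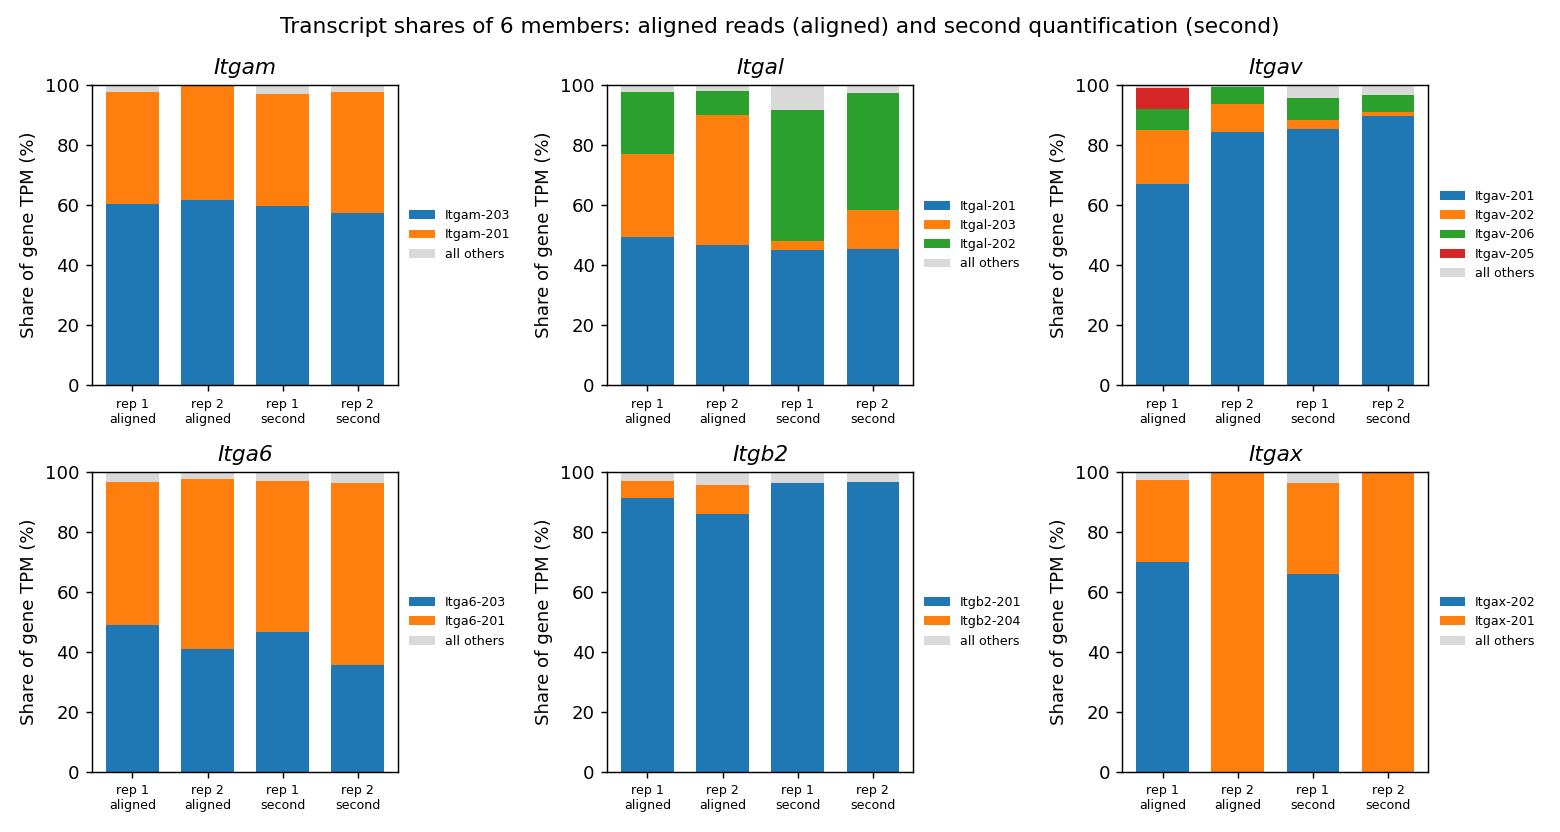
Share of each gene's TPM in its transcripts (percent), for replicates 1 and 2 in the table from aligned reads and in the second quantification; forms under 5% everywhere are grey. Itgam is stable at 57.4% to 61.7% for Itgam-203, whereas Itgal-203 ranges between 2.76% and 43.4% and Itgax-202 is present in replicate 1 only.

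The spread between libraries was measured on expected counts with TMM-scaled library sizes. The 12552 genes whose counts averaged 10 or more were tested. Itgav was the only member at least 2-fold apart on counts, 2.53-fold higher in replicate 2. By TPM ratios Itgax was also over 2-fold apart, with the short form given above. Over all tested genes 11.3% were at least 2-fold apart, 5.35% higher in replicate 2 and 5.96% higher in replicate 1. The log2 ratio of Itgav, 1.34, was exceeded in size by 5.68% of genes. Itga6 (1.51-fold) and Itga4 (1.50-fold) were also higher in replicate 2, followed by Icam1 (1.28-fold), Itgal (1.24-fold) and Itgb1 (1.15-fold). Itgax was 1.42-fold, Itgam 1.16-fold, Itga5 1.04-fold and Itgb2 1.04-fold higher in replicate 1. The median log2 ratio over the members was 0.26, and -0.02 over all tested genes.

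An exact two-sided binomial test with Benjamini-Hochberg adjustment over all tested genes called all 10 members as different between the libraries, 6 higher in replicate 2 and 4 higher in replicate 1. It also called 64.7% of all tested genes, 32.5% higher in replicate 2 and 32.3% higher in replicate 1. The test allows for counting noise only and compares these libraries, not conditions. The member nearest to the threshold of 0.05 was Itgax, with an adjusted p of 0.0288 by this exact test. Macrophage markers, none of which reached 2-fold, were called in 8 of 9 cases (3 favoured replicate 2, 5 favoured replicate 1).

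**Figure D4:**
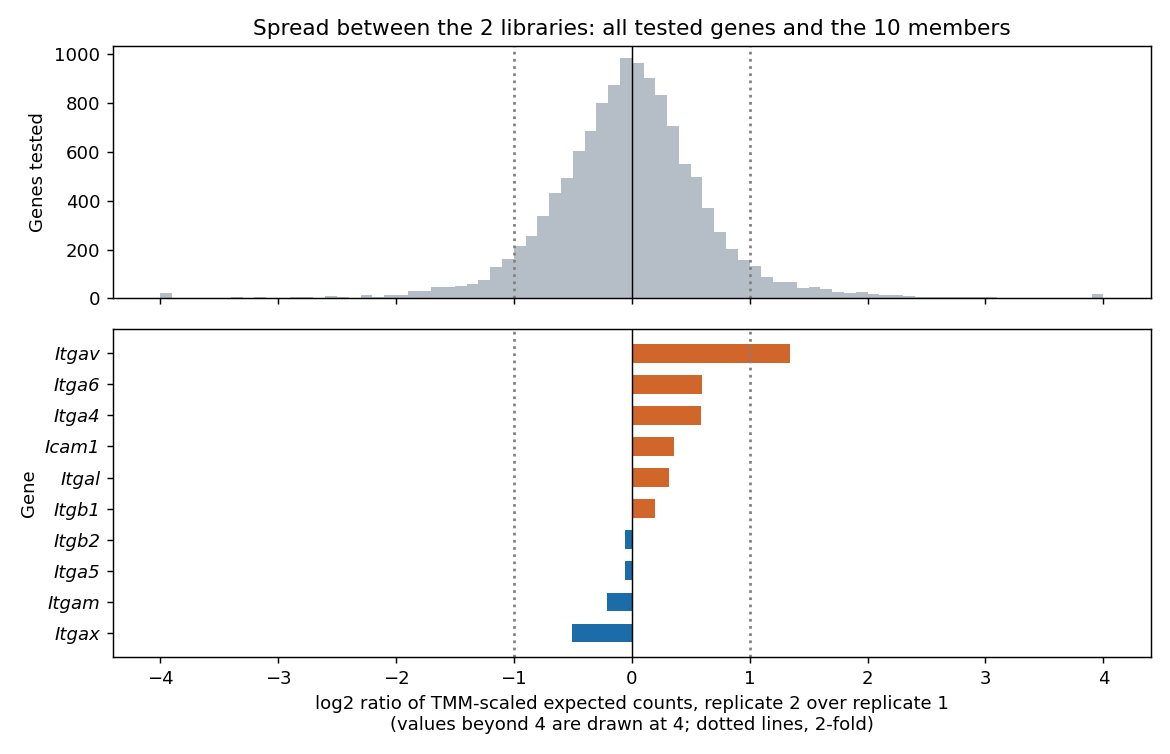
Log2 ratio of scaled expected counts, replicate 2 over replicate 1: above, a histogram of the 12552 tested genes; below, a bar for each member, orange where higher in replicate 2 and blue where higher in replicate 1. Itgav at 1.34 is the only member beyond the dotted 2-fold lines.

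Ligands of these integrins were present beside Icam1. Of 7 ICAM relatives and other cell-surface ligands, 2 reached 10 TPM in both libraries: Vcam1, the ligand of VLA-4, at 51.5 and 48.1 TPM, and Icam2, a ligand of LFA-1, at 10.7 and 11.2 TPM. F11r, the junction protein JAM-A, was at 0.26 and 1.83 TPM. In this list 1 of 3 tested genes was called, F11r, higher in replicate 2, against 64.7% called over all tested genes. Of 11 matrix and soluble ligands, 4 reached 10 TPM: osteopontin, Spp1, at 952 and 1140 TPM, thrombospondin, Thbs1, at 152 and 156 TPM, Tgfbi at 33.8 and 86.8 TPM and Mfge8, a bridge between apoptotic cells and alpha v integrins, at 48.8 and 33.8 TPM. Fibronectin, Fn1, the main ligand of the Itga5 receptor, was at 0.25 and 0.13 TPM, and Vtn, Lama5 and the 3 fibrinogen genes were at 0 reads in the gene table. All 6 matrix and soluble ligands with enough counts were called (4 favoured replicate 2, 2 favoured replicate 1). Over all tested genes 32.5% were called as higher in replicate 2 and 32.3% as higher in replicate 1.

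Genes that switch integrins on from inside the cell were mostly present. Of 12 inside-out activators 8 reached 10 TPM in both libraries. The adaptor Fyb, or ADAP, was at 699 and 1451 TPM, the GTPase Rap1b at 532 and 589 TPM, and Fermt3, the kindlin of blood cells, at 332 and 257 TPM. The talin gene Tln1 was at 138 and 168 TPM, while Tln2, Fermt2 and Fermt1 were under 1 TPM. Of 10 tested, 6 were called (4 favoured replicate 2, 2 favoured replicate 1), near the 64.7% called over all tested genes. Fyb and Apbb1ip were at least 2-fold higher in replicate 2, as were 5.35% of all tested genes. All 4 inhibitors of integrin activation reached 10 TPM, led by filamin, Flna, at 233 and 285 TPM, then Sharpin at 67.4 and 65.2 TPM and Dok1 at 74.2 and 36.1 TPM. Among these inhibitors 3 of 4 were called (1 favoured replicate 2, 2 favoured replicate 1), against the same 64.7%.

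Of 16 genes of outside-in signalling and the adhesion complex, 12 reached 10 TPM, among them the kinase Syk at 331 and 435 TPM and the actin regulator Vasp at 347 and 251 TPM. The focal adhesion kinase Ptk2 was at 5.01 and 4.63 TPM and its relative Ptk2b, or Pyk2, at 205 and 176 TPM. In this list 12 of 16 were called (5 favoured replicate 2, 7 favoured replicate 1). The test called 64.7% of all tested genes, 32.5% higher in replicate 2 and 32.3% higher in replicate 1. The proteins that tie ICAM tails to actin were led by moesin, Msn, at 546 and 880 TPM, with Ezr at 25.6 and 48.0 TPM and Rdx at 32.0 and 32.1 TPM, and 2 of 3 were called, both higher in replicate 2.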

How the data were processed

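Poly(A) RNA-seq of 2 libraries of 1 group was used, with 3 tables each. Per the deposited notes, values refer to mm10 and GENCODE M21. The deposited gene and transcript tables, from transcriptome alignments, give expected counts, TPM and FPKM by the authors. The authors also deposited, per library, estimated counts and TPM per transcript derived from the reads and an index; these were summed to genes. Programs and strand use were not given in the sources used here, so overlapping genes are uncertain.

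The 26345 rows without a mouse gene identifier held 0.0788% and 0.0771% of counts and stayed out. Expected counts were rounded for the binomial test (the exact tail, doubled; SciPy 1.17.1) and for scaling by TMM (edgeR 4.0.16) or, as an alternative, DESeq2 1.42.0 size factors. Ratios used a prior of 0.5 reads. The test was checked on simulated counts. Intervals and floors (3 reads) cover counting error only. Alternatives were other scalings, count filters, level thresholds, TPM ratios, FPKM, rescaled TPM, the second quantification and each library alone.

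Members and lists were chosen with earlier results of these data known. Named were all members, transcripts with at least 5% in either library, and of each wider list the 3 highest by mean TPM. A gene that this rule names is not reported here. For other subunits and ICAM relatives, genes with at least 1 TPM in either library were named. Others (Itga3, Itga11, Itgad, Itgb3, Itgb8, Icam4, Icam5, Mfge8, Fn1, Vtn, Lama5, Tln1, Tln2, Fermt1, Fermt2, Apbb1ip, Ptk2, Ptk2b, and marker and overlapping genes) were named after values were seen. Likeness of pattern to other genes was not computed for 1 condition.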

Additional observations from a re-analysis of the deposited data

How the results depend on the processing

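All 10 members stayed called by the binomial test under its 5 alternatives (other scalings, count filters and the second quantification). The count of members at least 2-fold apart was 1 under both other scalings and the second quantification, and 2 (Itgav and Itgax) from TPM ratios with either pseudocount, an alternative chosen after seeing the data. The direction of each member's ratio held under all 5 alternatives tried for it, in which the second quantification entered by its counts. By the TPM of the second quantification, Itgb2 and Itga5 were instead higher in replicate 2. There Itgb2 was at 301 TPM in replicate 1 and 322 TPM in replicate 2, and Itga5 at 224 and 243 TPM. The other members kept their direction. The median log2 ratio over members stayed between 0.18 and 0.28. The count of members at 10 TPM was 8 at a threshold of 20 TPM and 9 under the other 4 alternatives. Levels themselves depended on the scale. Rescaling TPM to nuclear protein-coding genes raised the mean of every member. Itgb2 went from 368 to 422 TPM, Itga5 from 264 to 303 TPM and Itgam from 155 to 178 TPM. The ratio of summed alpha partners was 0.81 to 0.87 for Itgb2 and 1.79 to 1.80 for Itgb1 with each library alone. For Itgax the log2 ratio was -0.50 from counts, but -2.27 and -1.47 from TPM with pseudocounts of 0.01 and 1, which carry the 352-base form. For Itgav it was 1.34 from counts and 1.19 and 1.16 from TPM. No paired analysis was possible because both libraries belong to 1 group. Depth limits Itgax most, with 144 and 68 counts.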
